A study of Sus scrofa with 6 samples.

Results

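The HOXC cluster genes HOXC5, HOXC6, HOXC8, HOXC9, HOXC10 and HOXC11 were described in 2 pig muscles, longissimus thoracis (LT) and semitendinosus (ST). They are the protein-coding genes with a HOXC symbol that lie between 19185746 and 19248172 on chromosome 5 of Sscrofa11.1, and they made up 6 of the 20288 annotated protein-coding genes in the files. The files hold 9 genes with a HOXC symbol, and the other 3, HOXC13, HOXC12 and HOXC4, lie outside these limits. The 6 genes were chosen by their summed FPKM in LT and ST, which was already known to differ, so their differences are given as a description without a test.

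Total RNA of LT and ST from 3 wild-type Min pigs, a Chinese local breed, was depleted of rRNA and sequenced, with 3 libraries for each muscle. The pigs were of the same age and received no treatment that the labels name, and an LT and an ST library that share a replicate number are from 1 pig. LT is a muscle of the back that runs along the spine, and ST is a muscle of the hind limb. Values are in FPKM, the fragments of a transcript scaled by its length and by the mapped fragments of the library, so levels of different genes can be set side by side.

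HOX genes encode homeodomain transcription factors that give cells their position along the body axis. They stand in clusters in which the order of the genes follows the order of their expression from head to tail, with low numbers active toward the head and high numbers toward the tail and in the distal limb. Muscle next to the thoracic spine and muscle of the hind limb form at different axial levels. Adult muscle and its connective tissue are known to keep part of the HOX pattern of the place where they arose.

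A gene was called where its limma adjusted p was below 0.05 and its log2 fold change was beyond 1 in either direction. Of the 13994 genes tested, 0.715% were called, 0.543% higher and 0.172% lower in ST. An unadjusted limma p below 0.05 together with a log2 fold change beyond 1 in either direction was found for 1015. Counts of listed genes at an unadjusted p below 0.05 carry no limit on the fold change. The fibre markers ACTA1, CKM and DES summed to 6106 to 6776 FPKM in LT and 6581 to 8969 FPKM in ST, high in all 6 libraries, and 0 of these 3, of 6 named, were called, with 0 at an unadjusted p below 0.05 in limma. Summed levels overlapped between the muscles for satellite cell, fibroblast, adipocyte, macrophage, Schwann cell and erythrocyte markers, 0 genes of these lists were called by limma, with 2 at an unadjusted p below 0.05, and no marker that was found was at 0 in all libraries. The 4 endothelial markers found, of 5 named, summed to 47.1 to 71.0 FPKM in LT and 112.9 to 164.1 FPKM in ST, and 2 of them, PECAM1 and CDH5, were called in limma (adjusted p = 0.0399 and 0.0355). The 4 smooth muscle and pericyte markers summed to 101.8 to 113.9 FPKM in LT and 175.0 to 234.2 FPKM in ST, and RGS5 was called (adjusted p = 0.0474 from limma). None of the 3 was called without a filter, after quantile normalization, without a variance trend or without any single library other than ST replicate 2, and RGS5 was also lost with a pseudocount of 1 and with unannotated loci added as genes. Mitochondrial transcripts took 2.91 to 4.25% of FPKM times length in LT and 6.15 to 8.48% in ST. The part of these differences in the HOXC values was not tested. In bulk samples, fewer cells of a type and less RNA per cell cannot be told apart. ST replicate 2 stood apart from the other libraries, since leaving it out raised the number of genes called by limma from 100 to 785. All HOXC values are therefore given by library.

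All 9 HOXC genes lie on the plus strand, in the order HOXC13, HOXC12, HOXC11, HOXC10, HOXC9, HOXC8, HOXC6, HOXC5 and HOXC4, over 117 kb from 19151169 to 19268257. The 2 genes with the highest numbers among the members were higher in ST, and the 4 with lower numbers were higher in LT. The direction turned between HOXC10 and HOXC9, whose annotated ends lie 9.93 kb apart.

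**Figure D1:**
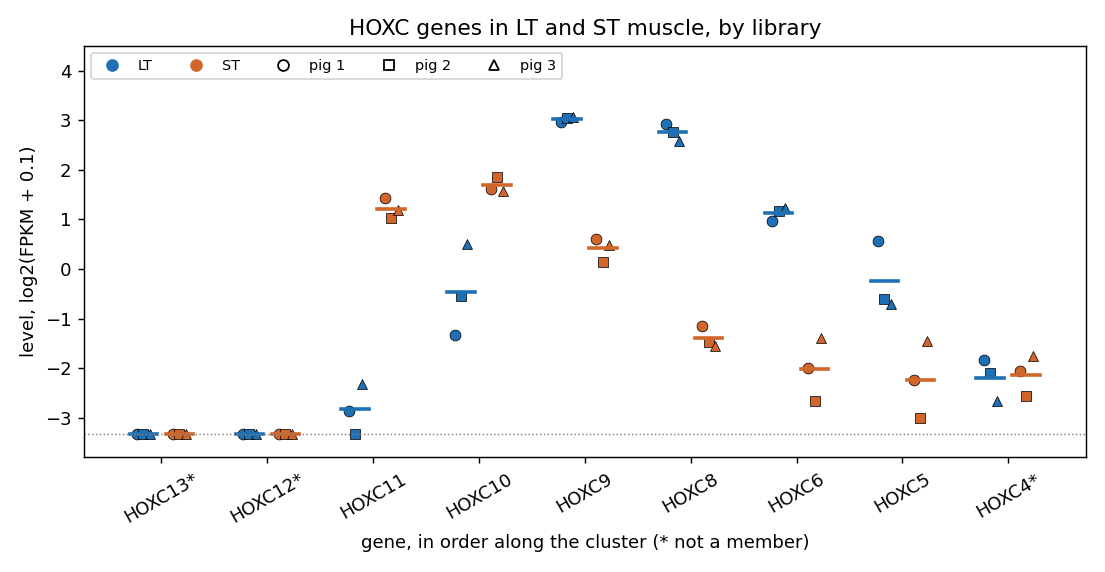
Level of each HOXC gene as log2(FPKM + 0.1) in each library, in the order of the genes along chromosome 5. Colour gives the muscle, marker shape the pig, and the short lines the mean of 3 libraries. The dotted line is a value listed at 0. ST lies above LT for HOXC11 and HOXC10 and below LT for HOXC9, HOXC8, HOXC6 and HOXC5, and the values of HOXC4 overlap.

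HOXC11 (ENSSSCG00000028104, 19185746 to 19189023) is a gene of the posterior part of the cluster that is active in the developing hind limb and at sacral levels. It was listed at 0.0375, 0 and 0.101 FPKM in LT replicates 1 to 3 and at 2.60, 1.95 and 2.17 FPKM in ST. Every ST library was far above every LT library, and LT replicate 3 was the highest of the LT libraries. The fitted log2 fold change of ST against LT was 4.05 (standard error 0.32) on the log2(FPKM + 0.1) scale, which ranked 5 from the top among 13994 genes. An exact 0 in these files can be a failed estimate, so no ratio of means is given.

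HOXC10 (ENSSSCG00000022728, 19197807 to 19202970) is known for its activity in the hind limb and at lumbar levels of the spinal cord. Its level was 0.297, 0.584 and 1.33 FPKM in LT and 2.98, 3.51 and 2.90 FPKM in ST. The muscles did not overlap, and the 3 LT libraries differed among themselves more than the 3 ST libraries. LT averaged 0.735 ± 0.531 FPKM (SD, n = 3) and ST 3.13 ± 0.334 FPKM (SD, n = 3), 4.25-fold higher in ST, with a fitted log2 fold change of 2.14 (standard error 0.43). Within pigs, the difference in log2(FPKM + 0.1) was 2.96, 2.40 and 1.07, lowest in pig 3. The fitted value ranged from 1.70 without LT replicate 1 to 2.63 without LT replicate 3.

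HOXC9 (ENSSSCG00000034474, 19212905 to 19215984) marks thoracic levels, where it sets the identity of motor neurons of the trunk. Its level was 7.73, 8.20 and 8.31 FPKM in LT and 1.43, 1.01 and 1.30 FPKM in ST. It had the closest LT libraries of all the members, with a coefficient of variation of 3.84%. LT averaged 8.08 ± 0.310 FPKM (SD, n = 3) and ST 1.25 ± 0.217 FPKM (SD, n = 3), 6.47-fold higher in LT, and the fitted log2 fold change was -2.61 (standard error 0.20). HOXC9 lies next to HOXC10 and had the opposite direction in each of the 3 pigs, with within-pig differences of -2.35, -2.90 and -2.58.

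HOXC8 (ENSSSCG00000038644, 19221760 to 19225846) acts at lower cervical and thoracic levels, where it helps to pattern vertebrae, ribs and motor neurons. Its level was 7.47, 6.65 and 5.92 FPKM in LT and 0.350, 0.262 and 0.242 FPKM in ST. Of the 6 members it had the largest difference toward LT. LT averaged 6.68 ± 0.776 FPKM (SD, n = 3) and ST 0.285 ± 0.0575 FPKM (SD, n = 3), 23.4-fold higher in LT. The fitted log2 fold change of -4.14 (standard error 0.22) ranked 3 from the bottom among 13994 genes, and the within-pig differences of -4.07, -4.22 and -4.14 were nearly equal.

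HOXC6 (ENSSSCG00000030585, 19229871 to 19243512) is active around the level of the fore limb and in the upper thorax. Its summed level was 1.87, 2.14 and 2.26 FPKM in LT and 0.150, 0.0587 and 0.281 FPKM in ST. All LT libraries were above all ST libraries. LT averaged 2.09 ± 0.205 FPKM (SD, n = 3) and ST 0.163 ± 0.112 FPKM (SD, n = 3), 12.8-fold higher in LT, with a fitted log2 fold change of -3.14 (standard error 0.34).

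HOXC6 was the only member with more than 1 transcript in the files. ENSSSCT00000032524, with 3 exons and 1009 bases, starts at 19229871, and ENSSSCT00000085507, with 2 exons and 6121 bases, starts downstream at 19236665. The first had 0.850, 0.473 and 0.399 FPKM in LT and was listed at 0, 0 and 0.0579 FPKM in ST. The second had 1.02, 1.67 and 1.87 FPKM in LT and 0.150, 0.0587 and 0.223 FPKM in ST. Both transcripts were thus lower in every ST library than in every LT library. The upstream transcript carried 45.6, 22.1 and 17.6% of HOXC6 FPKM in LT replicates 1 to 3. How the fragments of shared exons were divided between the transcripts was not tested.

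HOXC5 (ENSSSCG00000040798, 19245851 to 19248172) is active at cervical levels, near the shoulder. Its level was 1.39, 0.556 and 0.512 FPKM in LT and 0.112, 0.0244 and 0.267 FPKM in ST. The muscles did not overlap, but LT replicate 1 stood well above the other LT libraries. LT averaged 0.818 ± 0.492 FPKM (SD, n = 3) and ST 0.135 ± 0.123 FPKM (SD, n = 3), 6.08-fold higher in LT, with a fitted log2 fold change of -1.98 (standard error 0.50). The within-pig differences were -2.81, -2.40 and -0.74.

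The genes just outside the chosen limits had other patterns. HOXC12 (19167174 to 19168794) and HOXC13 (19151169 to 19157657), the latter known from hair and nail, were listed at 0 in all 6 libraries. HOXC4 (19265081 to 19268257), a gene of cervical levels, had 0.180, 0.134 and 0.0582 FPKM in LT and 0.139, 0.0693 and 0.196 FPKM in ST. These values overlapped, and the fitted log2 fold change was 0.07 (standard error 0.35). The gap between HOXC5 and HOXC4 is 16.9 kb in this annotation, in which HOXC4 has 1 transcript. RefSeq has HOXC4 at 19250411 to 19268267, so the gap depends on the annotation. What the shorter annotated gene does to the level of HOXC4 was not tested.

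All 6 members passed the filter of FPKM above 0.1 in at least 1 library. For 6 of 6 the values of LT and ST did not overlap, where 26.6% of the 13994 genes tested had no overlap. In 2 of them all ST values were above LT (19.2% of all genes) and in 4 all were below (7.42%). These counts are fixed by the choice of the genes, and nothing is read from them. The median log2 fold change was -2.30 over the 6 members and 0.17 over all genes tested. Under quantile normalization the median of all genes moved to -0.01 and under rescaling to nuclear transcripts to 0.27, and every member kept its direction relative to these medians.

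The order of the levels differed between the muscles. In LT the order of the mean FPKM was HOXC9, HOXC8, HOXC6, HOXC5, HOXC10, HOXC4 and HOXC11, and neighbours in that order did not overlap except HOXC5 with HOXC10 and HOXC4 with HOXC11. In ST the order was HOXC10, HOXC11, HOXC9, HOXC8, HOXC6, HOXC5 and HOXC4. There the values of HOXC10, HOXC11, HOXC9 and HOXC8 were separate from each other, while those of HOXC8, HOXC6, HOXC5 and HOXC4 ran into each other. Thus the highest level in each muscle belonged to a different gene, and in both muscles the mean declined with each gene from HOXC9 to HOXC5. The mean of HOXC4 was below that of HOXC5 in LT, and in ST both were at 0.135 FPKM. HOXC9 in LT was above 73.8% of the genes tested in mean FPKM, and HOXC10 in ST was above 48.2%.

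The FPKM of the 6 genes added up to 18.8, 18.1 and 18.4 in the LT libraries and to 7.62, 6.82 and 7.16 in the ST libraries. The total was 2.56-fold higher in LT, 18.4 ± 0.321 against 7.20 ± 0.404 (SD, n = 3 each). Within that total, HOXC10 and HOXC11 made up 1.78, 3.22 and 7.74% in LT and 73.2, 80.1 and 70.7% in ST. HOXC9 and HOXC8 were the main parts in LT, with means of 43.8 and 36.2%, and HOXC10 and HOXC11 in ST, with 43.7 and 31.0%. HOXC9 was still 17.3% of the total in ST, more than any other of the genes that were higher in LT. These are shares of length-scaled levels, and LT replicate 3 had the largest share of HOXC10 and HOXC11 among the LT libraries.

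**Figure D2:**
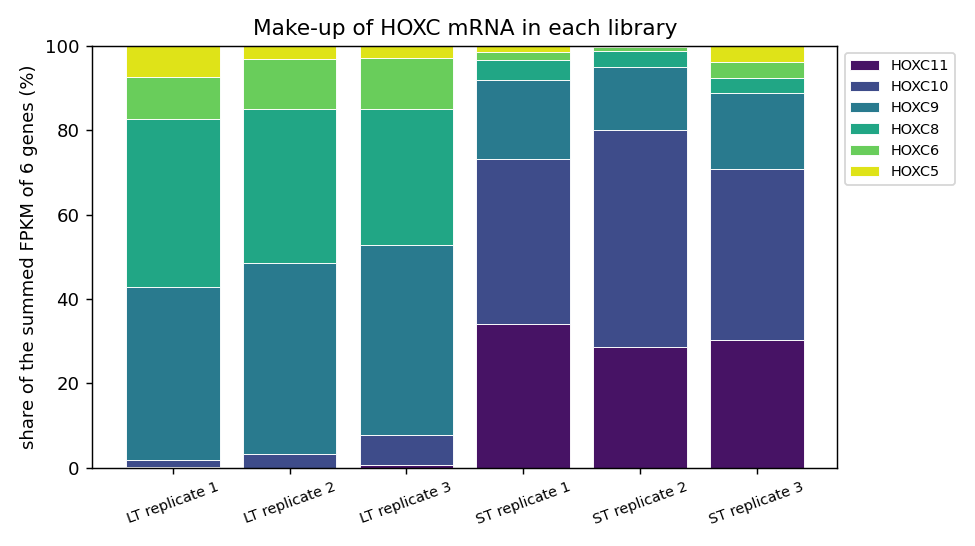
Share of each of the 6 genes in their summed FPKM, in percent, with 1 bar per library. HOXC9 and HOXC8 fill most of each LT bar, and HOXC10 and HOXC11 make up 70.7 to 80.1% of each ST bar.

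The spread among pigs also differed along the cluster. In LT, leaving out HOXC11 with its value of 0, the coefficient of variation was 3.84% for HOXC9, 9.78% for HOXC6 and 11.6% for HOXC8, and 60.1% for HOXC5 and 72.2% for HOXC10. In ST it was 10.7% for HOXC10, 14.8% for HOXC11, 17.4% for HOXC9 and 20.2% for HOXC8, and 68.5% for HOXC6 and 91.4% for HOXC5. HOXC10 thus varied most of these genes in LT and least of the 6 members in ST. Fragment numbers were not recovered from the files, and the counting error of low values was not computed.

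The span of the HOXC genes held 14 other transcripts, 11 lncRNAs and 3 mRNAs that the authors assembled without a matching annotation. Of these, 11 lie on the minus strand and 3 on the plus strand. The libraries were made with a directional kit, but the strand setting of the quantification is not given in the sources used here, so a transcript opposite a HOXC gene cannot be told apart from fragments of that gene.

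XLOC_090464 lies on the minus strand between HOXC11 and HOXC10 and was named when the genes were chosen. Novel_006286 (19193281 to 19197296, 2 exons, 3939 bases) had a value of 0 in every LT library and of 2.79, 1.24 and 3.86 FPKM in ST. Novel_006287, which ends at 19197552, was listed at 0 in LT and at 0.298, 0.0921 and 0.305 FPKM in ST. In ST the values of the first transcript ran from below to above those of HOXC10 and HOXC11 on either side of it, and it carried 90.3, 93.1 and 92.7% of the locus. The fitted log2 fold changes were 4.63 (standard error 0.47) and 1.65 (standard error 0.43), which depend on the pseudocount since all LT values are 0. RefSeq, in the same assembly, has the lncRNA LOC110260668 at 19194155 to 19197371. On the plus strand within it, the lincRNA LNC_007958 (19196117 to 19197074) was listed at 0 in LT and at 0.458, 0.152 and 0.285 FPKM in ST. ST replicate 2 was the lowest of the ST libraries for all 3 transcripts.

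The other transcripts on the HOXC11 side were low. LNC_008286, opposite HOXC11, was listed at 0 in LT and at 0.166, 0.0207 and 0.248 FPKM in ST. LNC_008287, opposite HOXC10, had 0, 0.0355 and 0.0471 FPKM in LT and 0.385, 0.157 and 0.198 FPKM in ST. Both were above LT in every ST library, at 1.06 to 11.4% of HOXC11 and 4.48 to 12.9% of HOXC10. LNC_008288, also opposite HOXC10, was listed at 0 in LT and at 0.0770, 0.117 and 0 FPKM in ST. ENSSSCT00000087019 (19174324 to 19179006), between HOXC12 and HOXC11, was listed at 0 in LT and at 0.0719, 0 and 0.0236 FPKM in ST and did not pass the filter. In human, the antisense lncRNA HOTAIR is transcribed from the part of the cluster between HOXC12 and HOXC11. None of these transcripts was matched to it, and no value is given for it.

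Between HOXC10 and HOXC9 the direction of the lncRNAs turned. ENSSSCT00000089262 (19206548 to 19209202, minus strand) had 0.416, 0.636 and 0.660 FPKM in LT and 0.242, 0.0407 and 0.147 FPKM in ST. The lincRNA LNC_007959 (19207412 to 19212737, plus strand) had 0.343, 0.589 and 0.419 FPKM in LT and 0.159, 0.0923 and 0.209 FPKM in ST. Both were lower in every ST library than in every LT library, as was ENSSSCT00000066787, with 0.271, 0.192 and 0.407 FPKM in LT and 0.190, 0 and 0.0722 FPKM in ST. ENSSSCT00000089262 overlaps the RefSeq gene LOC102167757 (19206540 to 19209049), for which the study designed a pair of qPCR primers. The pair is shown because its target lies, by the RefSeq coordinates of that gene, in the stretch where the direction turned. The primers themselves were not mapped, and the letters are 5′ to 3′.
LOC102167757 forward: ctgaccccaaaagagtgc
LOC102167757 reverse: ttcagcgtctgcttccag

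XLOC_090469 begins at 19210964 on the minus strand and reaches over HOXC9. Its lincRNA LNC_008290 had the highest mean of the lncRNAs in both muscles, with 1.13, 1.88 and 1.53 FPKM in LT and 0.692, 0.408 and 0.909 FPKM in ST. Its mRNA Novel_006288, opposite HOXC9, had 0.355, 0.394 and 0.475 FPKM in LT and 0.117, 0.117 and 0.0792 FPKM in ST, or 4.60 to 5.71% of HOXC9 in LT and 6.08 to 11.6% in ST. Both had LT values above all ST values, with fitted log2 fold changes of -1.10 and -1.31, less far from 0 than that of HOXC9. LNC_008289 of the same locus overlapped between the muscles, with a fitted log2 fold change of -0.60 (standard error 0.48). Between HOXC9 and HOXC8, LNC_007960 (19218004 to 19220718, plus strand) had 0.202, 0.343 and 0.343 FPKM in LT and 0.0729, 0.0298 and 0.0634 FPKM in ST. From LNC_007960 to HOXC4, all transcripts listed were those of the HOXC genes.

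**Figure D3:**
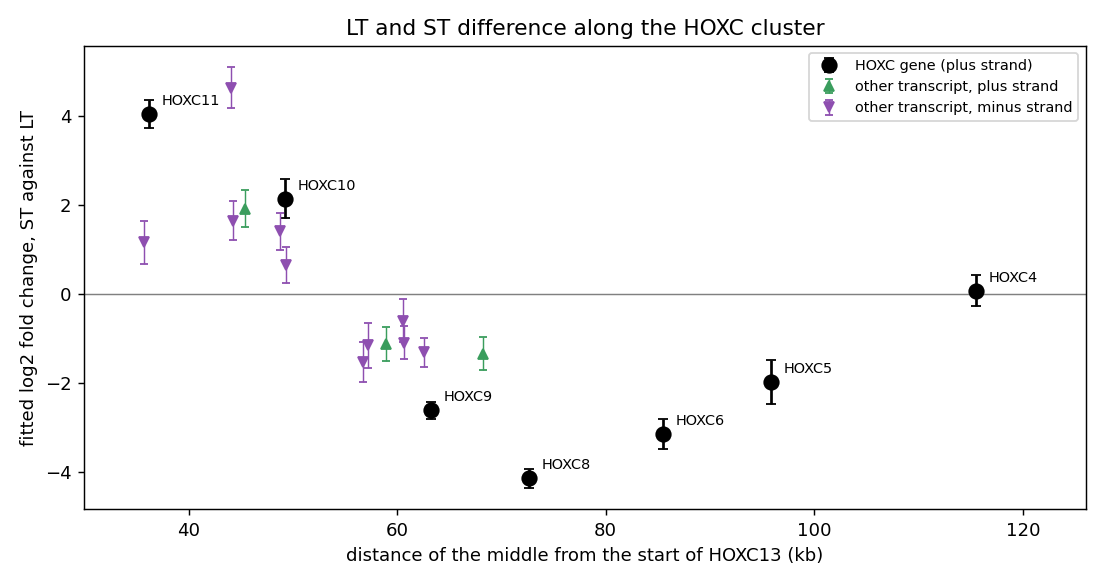
Fitted log2 fold change of ST against LT, on the log2(FPKM + 0.1) scale, against the distance of the middle of each gene or transcript from the start of HOXC13 in kb. Bars are standard errors. Points are above 0 up to HOXC10 and below 0 from the first transcript after it to HOXC5, while HOXC4 is at 0.07.

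A total of 7 of the 14 transcripts start before the end of HOXC10, and all 7 had a higher mean in ST. The other 7 start after it, and all 7 had a lower mean in ST. This division of the span was chosen after the values were seen. The values did not overlap for 5 of the first 7, all above LT in ST (9.87% of the 52102 transcripts tested were), and for 6 of the second 7, all below (6.44%). Over both directions 16.3% of transcripts had no overlap. Of the first 7, ENSSSCT00000087019 was not tested. LNC_008286, LNC_007958 and both transcripts of XLOC_090464 were listed at 0 in LT and passed the filter only through ST. LNC_008287 also exceeded 0.1 FPKM only in ST, and LNC_007960 of the second 7 only in LT. The filter thus fixes part of these counts, and nothing is read from them. In limma, 0 of the 11 tested transcripts outside XLOC_090464 were called, where 0.146% of transcripts were, 0.0825% higher and 0.0633% lower in ST. An unadjusted p below 0.05 with a log2 fold change beyond 1 in either direction was found for 8 of the 11. Of the 52102 transcripts, 3623 met both limits. Several of the 11 share a locus, so they are not separate observations. The adjusted p of the 11 ranged from 0.260 to 0.724. XLOC_090464 was used in the choice. Its transcripts are left out of the limma counts but are among the 14 and among the 5 without overlap. Without them 12 transcripts remain, with 3 above LT in ST and 6 below.

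The genes on either side of the cluster were compared next. Within 500 kb of the HOXC genes lie 20 other protein-coding genes, 8 before HOXC13 and 12 after HOXC4, and 19 passed the filter. None of the 19 was called by limma, where 0.715% of all genes were. An unadjusted limma p under 0.05 was found for 5 of the 11 tested after HOXC4 and 0 of the 8 before HOXC13. The share of all genes at that limit alone is not given here. In 3 of the 20 all ST values were above LT (19.2% of all genes) and in 3 all were below (7.42%). The HOXC members, chosen with their difference known, ranged from -4.14 to 4.05 in fitted log2 fold change. The 19 flanking genes ranged from -1.03 to 1.499 with a median of 0.08. The nearest were CALCOCO1, an autophagy receptor gene 221 kb before HOXC13, at 0.08 in log2 fold change (standard error 0.20), and SMUG1, a DNA repair gene 130 kb after HOXC4, with -0.34 (standard error 0.27). For both, the values of LT and ST overlapped.

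**Figure D4:**
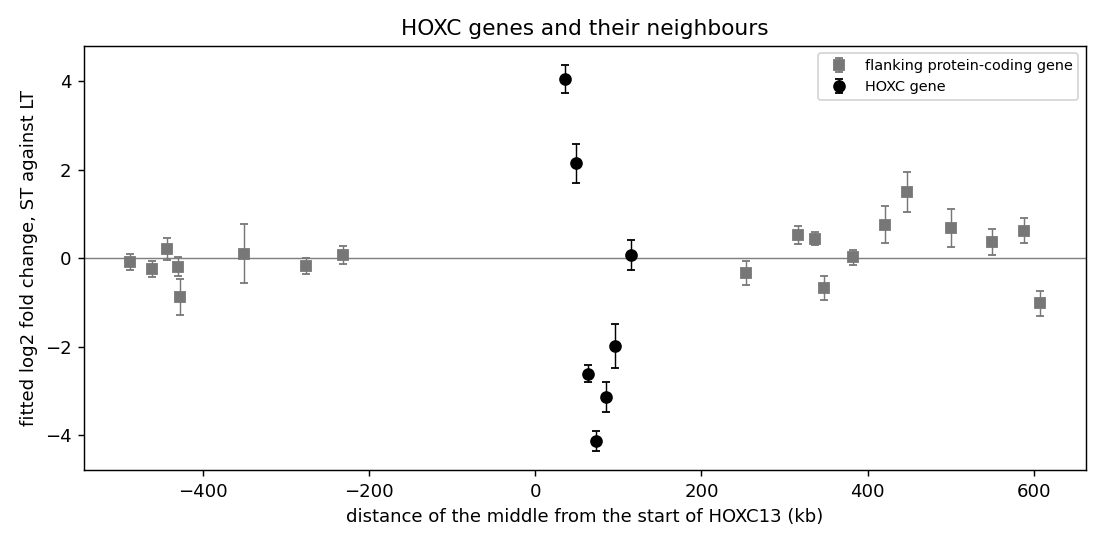
Fitted log2 fold change of ST against LT for the HOXC genes (circles) and the tested protein-coding genes within 500 kb (squares), against the distance from the start of HOXC13 in kb. Bars are standard errors. The neighbours lie between -1.03 and 1.499, and the 6 members lie outside that range.

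Genes of the same number in the HOXA, HOXB and HOXD clusters are paralogs of the HOXC genes and encode proteins with closely related homeodomains. HOXD9 had 2.79, 3.56 and 3.73 FPKM in LT and 0.299, 0.354 and 0.392 FPKM in ST, the same direction as HOXC9 (log2 fold change -2.94, standard error 0.23, adjusted p = 0.00405 from limma). HOXD8 had 31.3, 34.1 and 45.9 FPKM in LT and 4.04, 5.71 and 2.99 FPKM in ST, the direction of HOXC8 (log2 fold change -3.12, standard error 0.26, adjusted p = 0.00527 from limma). Both were called under every setting tried. HOXD8 was above HOXC8 in each library, in both muscles.

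HOXA9 went the other way from HOXC9. It had 0.373, 0.808 and 6.39 FPKM in LT and 10.5, 16.7 and 11.7 FPKM in ST (log2 fold change 3.19, standard error 0.84, adjusted p = 0.10 from limma, 0.0443 with the pig number as a block and 0.0326 without LT replicate 3). HOXA10 had 0, 0.0900 and 0.836 FPKM in LT and 6.55, 13.7 and 6.54 FPKM in ST, the direction of HOXC10 (log2 fold change 5.02, standard error 0.76, adjusted p = 0.0391 from limma, 0.0212 to 0.157 over the alternatives). LT replicate 3 was the highest LT library for HOXC10, HOXC11, HOXA9 and HOXA10 alike. HOXA11 was listed at 0 in LT and at 0.903, 0.0229 and 1.62 FPKM in ST, the direction of HOXC11 (adjusted p = 0.153 from limma, and 0.00450 without ST replicate 2).

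The remaining paralogs were low or overlapped. HOXA5 and HOXB6 overlapped between the muscles, with log2 fold changes of 0.43 and -0.77 (adjusted p = 0.564 and 0.270 from limma). HOXD11 was listed at 0 in 4 of 6 libraries, with a log2 fold change of 0.07 that changed sign when single libraries were left out. HOXB5, HOXB8 and HOXD10 did not pass the filter. Of the tested HOX genes outside the HOXC cluster, 1 of 7 HOXA genes was called higher in ST, 0 of 5 HOXB genes were called, with 0 at an unadjusted p under 0.05, and 2 of 6 HOXD genes were called lower in ST, where 0.715% of all genes were called. With the pig number as a block, 3 of 7 HOXA genes were called, HOXA7 and HOXA9 beside HOXA10, and 3 of 6 HOXD genes, HOXD1 beside HOXD8 and HOXD9. Without the block, HOXA7 was at 1.46 and HOXD1 at -3.01 in log2 fold change (limma adjusted p = 0.0942 and 0.0509).

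**Figure D5:**
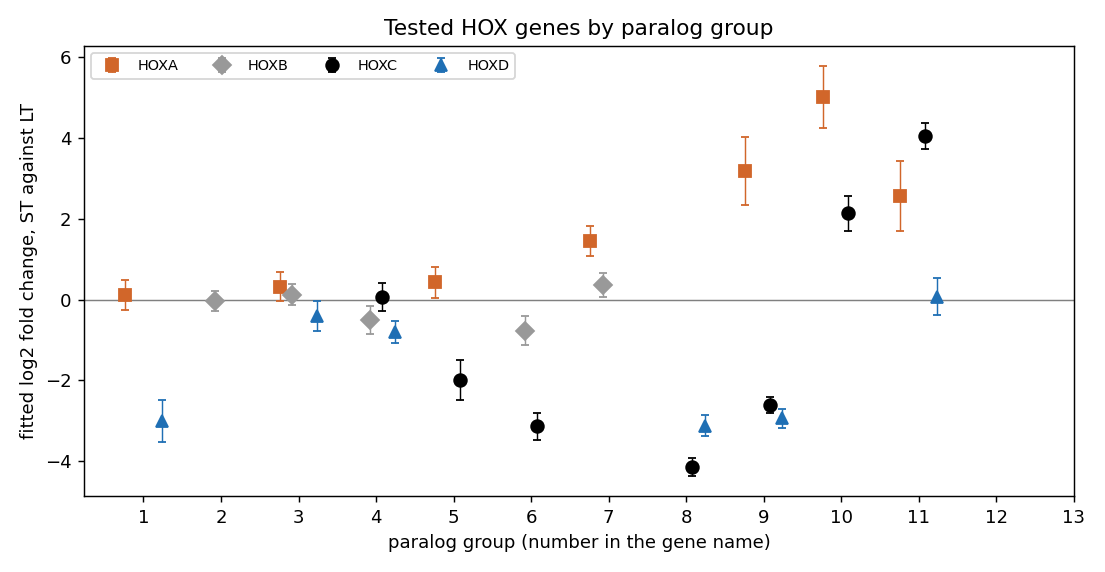
Fitted log2 fold change of ST against LT for the tested HOX genes, against the number in the gene name, with colour and shape for the cluster. Bars are standard errors. HOXC9 lies with HOXD9 below 0 while HOXA9 is above 0, and HOXC10 and HOXC11 lie above 0 with HOXA10 and HOXA11.

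Proteins of the PBX, MEIS and PKNOX families bind DNA together with HOX proteins. Of the 9 such genes listed, 7 were found and tested, and 0 were called by limma, where 0.715% of all genes were. At any fold change, 3 had an unadjusted p under 0.05. Only PBX3 of these also had a log2 fold change beyond 1 in either direction. Both limits were met by 1015 of all 13994 genes. MEIS1 had 3.52, 5.34 and 4.82 FPKM in LT and 2.98, 2.45 and 2.22 FPKM in ST (log2 fold change -0.80, standard error 0.23, adjusted p = 0.107 from limma). PBX3 had 5.46, 4.10 and 2.46 FPKM in LT and 1.26, 2.36 and 1.07 FPKM in ST (log2 fold change -1.31, standard error 0.38). Its adjusted p was 0.112 from limma, 0.0426 with the pig number as a block and 0.0398 without ST replicate 2. The third, PKNOX2, went the other way, with 5.47, 5.06 and 5.16 FPKM in LT and 8.64, 5.56 and 10.4 FPKM in ST (log2 fold change 0.59, standard error 0.24, adjusted p = 0.220 from limma). None of these 3 genes overlapped between the muscles.

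CDX factors, GDF11 and retinoic acid signalling act upstream of HOX genes in the embryo. Of 10 genes of this kind, 8 were found, 4 passed the filter and 0 were called by limma, with 0 at an unadjusted p under 0.05. RARA, a retinoic acid receptor, was at 0.56 on the log2 scale for ST against LT (limma adjusted p = 0.259), and CDX2 was listed at 0 in all libraries. Polycomb proteins keep HOX genes silent, and trithorax proteins keep them active. Of 19 such chromatin genes, 18 were found and tested and 0 were called by limma, with 4 at an unadjusted p under 0.05. Of these 4, only RNF2 also had a log2 fold change beyond 1 in either direction. Over all genes, 0.715% were called, and 1015 of 13994 met both limits.

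JARID2, which helps to recruit the Polycomb complex that methylates histone H3, had 2.68, 2.39 and 2.51 FPKM in LT and 5.45, 4.65 and 4.27 FPKM in ST (log2 fold change 0.89, standard error 0.18, adjusted p = 0.0655 from limma). The adjusted p of JARID2 was 0.0355 with the pig number as a block, 0.0416 after rescaling to nuclear transcripts and 0.0471 without ST replicate 2. Its log2 fold change stayed below 1 in all settings. RNF2, the ubiquitin ligase of the other main Polycomb complex, had 4.76, 3.58 and 2.52 FPKM in LT and 9.004, 7.10 and 7.52 FPKM in ST (log2 fold change 1.14, standard error 0.25). Its adjusted p was 0.0713 from limma, 0.0295 with the pig number as a block and 0.0399 after rescaling to nuclear transcripts. Neither gene overlapped between the muscles. The HOXC members were chosen with their difference known, so the sizes are not compared with theirs.

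For each member the most similar patterns were sought among the 9963 genes with a mean of at least 1 FPKM. Likeness was the root mean square difference in log2(FPKM + 0.1) over the 6 libraries, after each gene was centred on its own mean. HOXC9 was nearest to HOXD9 (0.270) and HOXC6 (0.390), and HOXC6 to HOXD9 (0.360) and HOXC9 (0.390). HOXC8 was nearest to MSS51 (0.631), HOXD8 (0.632) and HOXC6 (0.666). The nearest gene to HOXC10 was FCER1G (0.104), with 0.573, 0.976 and 2.50 FPKM in LT and 4.37, 5.58 and 4.53 FPKM in ST, which shares the high LT replicate 3. HOXC11 was nearest to the fructose transporter gene SLC2A5 (0.382) and HOXC5 to CILP (0.525). The differences between members were 0.390 to 1.23 among HOXC5, HOXC6, HOXC8 and HOXC9, 1.06 between HOXC10 and HOXC11, and 2.32 to 4.11 across these groups. They describe the 6 libraries, which fall into the 3 of each muscle.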

How the data were processed

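RNA of LT and ST of 3 Min pigs was sequenced in 6 libraries with a directional kit after removal of rRNA. Per the study's methods, SOAPnuke was used to clean the reads, HISAT2 to align them to Sus scrofa 11.1 and StringTie for assembly. The authors deposited FPKM for each of 72511 transcripts, of which 14432 are lncRNAs. Low values showed no steps of whole fragments, so fragment numbers were not recovered from the files, and no counting interval was computed. The number of pigs limits the precision.

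For each annotated protein-coding gene, the FPKM of its transcripts were added up. Features that exceeded 0.1 FPKM in 1 library or more entered a fit of log2(FPKM + 0.1) in limma 3.58.1 (R 4.3.3), with the variance allowed to follow the mean level. Benjamini-Hochberg adjustment ran over 13994 genes or, in a second fit, 52102 transcripts. Features with a limma adjusted p below 0.05 and a log2 fold change beyond 1 in either direction were called. In simulated data with 200 genes changed by 4 on the log2 scale, 194 were recovered with 7 other calls, and 96 of 200 transcripts were recovered with 4 other calls. Tables were handled in Python 3.11.15 with pandas 2.3.3 and numpy 2.4.6.

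The members and all lists were chosen with earlier results of these data known. The genes named were the members, every other transcript in their span, paralogs of the same number, the nearest flanking gene on each side, the 3 genes nearest in pattern to each member, of which not all are printed, and, from the lists, examples chosen after their values were seen. Pairing by pig comes from the study's methods and the shared numbers. Deviations from the group means correlated at 0.323, 0.305 and 0.329 over genes for samples of the same pig, and at -0.123 or lower for different pigs. Over transcripts the values were 0.0833, 0.0723 and 0.0914 for the same pig, and -0.0316 or lower for different pigs. The deviations of a muscle sum to 0, so the values for different pigs are not independent of those for the same pig. The p-values of the main fit measure the spread between libraries within a muscle and do not use the pairing. Only those with the pig block use the spread of the differences within pigs. The alternatives were other pseudocounts and filters, quantile normalization, rescaling to nuclear transcripts, no variance trend, the pig block and leaving out each library. Adding the unannotated mRNA loci as genes was chosen after the data were seen.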

Additional observations from a re-analysis of the deposited data

How the results depend on the processing

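No member changed direction in any of the 16 settings tried, the values as reported included. With a pseudocount of 0.01 the fitted log2 fold changes were 5.89 for HOXC11, -4.51 for HOXC8, -3.83 for HOXC6 and -2.82 for HOXC5, and with a pseudocount of 1 they were 1.63 for HOXC11, 1.29 for HOXC10, -2.02 for HOXC9, -2.58 for HOXC8, -1.41 for HOXC6 and -0.65 for HOXC5. A larger pseudocount draws low values together by construction. Quantile normalization gave -2.82 for HOXC9.

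The number of genes called, 100, was 15 without a filter, 26 without a variance trend, 50 after quantile normalization (28 higher and 22 lower in ST, against 76 and 24), 363 after rescaling to nuclear transcripts (312 higher and 51 lower) and 11 to 785 with each library left out, the lowest without LT replicate 3 and the highest without ST replicate 2. It was 17 without LT replicate 1 and 16 without LT replicate 2, ST replicate 1 or ST replicate 3. With the unannotated mRNA loci added, 113 of 19672 were called. The number of transcripts called, 76, was 37 with a pseudocount of 1, 30 without a filter, 120 with FPKM above 0.1 in at least 3 libraries, and 46 to 256 with each library left out, the lowest without ST replicate 1 and the highest without ST replicate 2. The cause was not tested.

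With the pig number as a replicate block, 706 genes and 2 transcripts were called. Pairing left the log2 fold changes of the HOXC members as they were and lowered their standard errors. Among named genes other than the members, for which no calls are given, the block added the calls of PBX3, RNF2, HOXA7, HOXA9, HOXD1 and the neighbour PPP1R1A. For HOXD11, leaving out 1 library gave -0.34 to 0.41. The counting error of low levels, such as those of HOXC5 in ST, was not computed.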
